A study of Mus musculus with 12 samples.

Results

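Natural killer (NK) cells of wild type mice were compared between the bone marrow and the spleen. The comparison used the 3 arrays of wild type bone marrow and the 3 of wild type spleen, 6 of the 12 arrays of the series, and took in every gene with a probe set of exactly 1 symbol. All mice were C57BL6 and 7 to 10 weeks old, matched for age and sex, and cells negative for CD3 and positive for NK1.1 were sorted from each tissue. The other 6 arrays held the same cells from knockout mice that lack the microRNA miR-142, 3 from the spleen and 3 from the bone marrow, and served as the reference for whether a tissue difference was the same without miR-142. The study set out to find genes whose expression could contribute to the knockout phenotype, so the wild type tissue difference is its baseline. The arrays of a group are called biological replicates. Whether a replicate came from 1 mouse or from pooled mice is not given in the sources used here, and neither is the sex of the animals.

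NK cells are innate lymphocytes that kill infected and transformed cells with perforin and granzymes. They develop from lymphoid progenitors mainly in the bone marrow, where immature NK cells divide, and then mature, leave through the sphingosine-1-phosphate receptor S1pr5 and circulate through blood and spleen. In the mouse, maturation is followed by the loss of CD27 and the gain of CD11b (Itgam) and then KLRG1, and the transcription factors T-bet (Tbx21) and Zeb2 drive its late steps.

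Across genes, the correlation between arrays was 0.979 to 0.986 within a wild type group and 0.952 to 0.974 between the tissues. The first principal component of the 6 arrays, with 54.2% of the variance, separated the tissues. Mir142, the gene deleted in the knockout, had log2 signals of 6.77 to 7.58 in wild type spleen and 7.10 to 8.25 in wild type bone marrow, and its tissue difference of 0.21 ± 0.29 did not pass. NK receptor genes were bright in both tissues, but NK identity genes leaned lower in bone marrow. Of 16 tested, 1 had a difference above 0, and the median was -0.18 against -0.02 over all genes. By the rule given below, limma called Nfil3 higher and Prf1 and Gzma lower. Their summed linear signal was 54402 to 56920 in wild type spleen and 46989 to 53052 in wild type bone marrow, over the 16 genes. Ncr1, which encodes the activating receptor NKp46, stood at 12, 11.93 and 12.01 in the spleen against 11.53, 11.6 and 11.89 in the marrow, and Klrb1c, which encodes NK1.1, at 10.65 to 11.14 over both. Eomes, a transcription factor that defines NK cells, differed by -0.02 ± 0.10. The array numbers fell into 2 runs, with spleen 1 and 2 and bone marrow 1 in the first and spleen 3 and bone marrow 2 and 3 in the second, and the run was a term of the fit.

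Differences are given as bone marrow minus spleen on the log2 scale, with the standard error of the fit and n = 3 arrays per group. Calls are genes with a Benjamini-Hochberg adjusted p under 0.05 in limma, adjusted over the whole set of 11963 genes tested. Of these, 519 were higher in bone marrow (4.34% of genes tested) and 124 were lower (1.04%), and 2744 had an unadjusted p under 0.05. Over 2-fold differences were found in 161 called genes, 150 higher and 11 lower in bone marrow. The median difference over all genes tested was -0.02. The largest rises were in the alarmin genes S100a8 (3.72 ± 0.37) and S100a9 (3.31 ± 0.47), Plac8 (2.95 ± 0.25), the neutrophil granule gene Ngp (2.83 ± 0.53) and the mitotic kinesin Kif11 (2.82 ± 0.57). The largest falls were in the microRNA gene Mir103-2 (-1.50 ± 0.31), the inhibitory receptor Klrg1 (-1.48 ± 0.25), the transcription factor Zeb2 (-1.40 ± 0.16), the chymase Cma1 (-1.26 ± 0.23) and the egress receptor S1pr5 (-1.23 ± 0.13). Their adjusted p in limma was at most 0.0193.

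The arrays of the tissues did not overlap in 639 of the 643 called genes, and in 31.6% of all genes tested. The count of calls rested on single arrays. It was 82 without bone marrow 1, 147 without spleen 3, 294 without spleen 2, 323 without spleen 1 and 395 without bone marrow 2. Within the first run alone limma called 1 gene and within the second 8, with 2030 and 1235 at an unadjusted p under 0.05. The share of higher calls, 80.7%, also moved with the scaling, to 354 higher and 204 lower when the arrays were quantile normalized again and 377 higher and 229 lower when each was centred on its median.

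**Figure D1:**
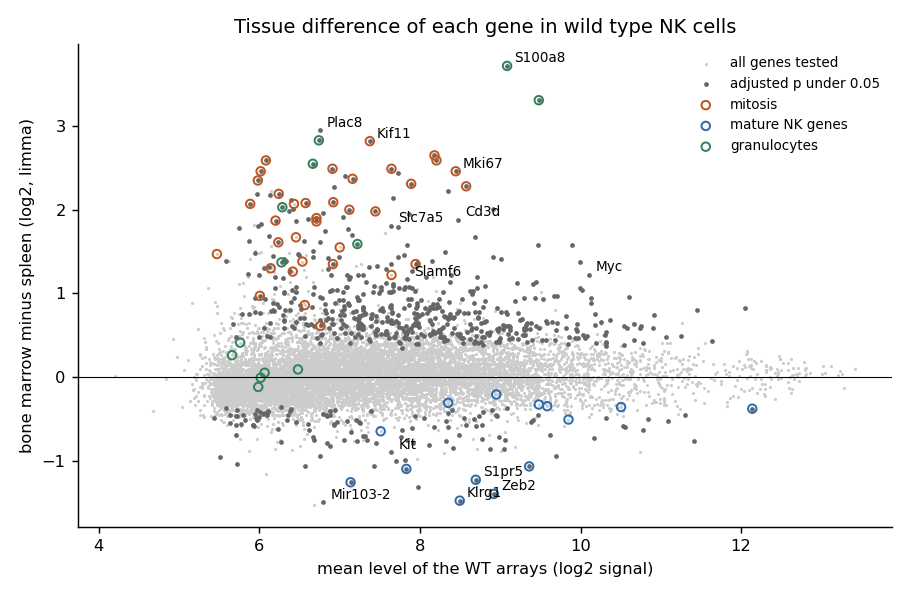
Each point is a gene tested, with the mean log2 signal of the 6 wild type arrays on the x axis and the limma log2 difference, bone marrow minus spleen, on the y axis. Dark points passed the adjusted p, rings mark the members of 3 lists, and the ringed mitosis genes all lie above 0 while the ringed mature NK genes all lie below it.

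Genes of cell division were higher in the sorted bone marrow samples. Of 35 mitosis genes tested, 24 rose and 0 fell, and all 35 had a difference above 0, with a median of 2.00 against -0.02 over all genes. The mean log2 signal of the list was 6.37, 5.86 and 5.68 in spleen 1, 2 and 3 and 8.27, 7.80 and 7.31 in bone marrow 1, 2 and 3, so every bone marrow array lay above every spleen array. These are bulk samples, in which more dividing cells and more of these transcripts per cell cannot be told apart. Which of the sorted cells held the transcripts was not tested.

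Kif11, the kinesin that pushes the spindle poles apart, had log2 signals of 6.91, 5.88 and 5.43 in the spleen against 9.45, 8.70 and 7.90 in the marrow, a difference of 2.82 ± 0.57 (limma adjusted p = 0.0171). Its lowest bone marrow array stood above its highest spleen array, a condition for being named among the largest rises. The B-type cyclin Ccnb2, which activates the mitotic kinase, stood at 7.49, 6.92 and 6.39 in the spleen against 9.86, 9.52 and 8.92 in the marrow, and rose by 2.65 ± 0.55 (limma adjusted p = 0.0196). Mki67, which encodes the proliferation antigen Ki-67, was 7.93, 7.47 and 6.54 in the spleen against 10.05, 9.62 and 9.07 in the marrow, and rose by 2.46 ± 0.50 (limma adjusted p = 0.0176). In each of these genes array 1 was the highest of its tissue and array 3 the lowest.

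The mitotic kinase Cdk1 (2.00 ± 0.43), cyclin A2 (Ccna2, 2.59 ± 0.50) and the checkpoint kinase Bub1 (2.59 ± 0.64) rose, as did 2 subunits of the chromosomal passenger complex, Birc5 (2.49 ± 0.45) and Cdca8 (2.49 ± 0.46), and its kinase Aurkb (1.35 ± 0.31). The chromokinesin Kif4 (2.46 ± 0.47), the spindle protein Nusap1 (2.37 ± 0.44), topoisomerase II alpha (Top2a, 2.28 ± 0.49) and Ube2c, the ubiquitin-conjugating enzyme of the anaphase-promoting complex (2.31 ± 0.50), were among them too. The cytokinesis protein Anln (1.61 ± 0.47, limma adjusted p = 0.0722) and the transcription factor Foxm1 (1.26 ± 0.38, limma adjusted p = 0.0769), which drives many mitotic genes, did not pass.

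The direction of the mitosis list was the same in each run, with medians of 2.36 and 1.95, but its calls depended on single arrays. Without bone marrow 1 or without spleen 3 limma called 0 of the 35 members, although 26 and 31 had an unadjusted p under 0.05 and the medians were 1.64 and 1.93. It called 5 without spleen 2, 8 without bone marrow 2, 16 without spleen 1 and 25 without bone marrow 3. Fitted to the 6 wild type arrays alone it called 34 with the run as a covariate and 33 without, and with a trended, robust prior 16. Markers of granulocytes moved with the tissue as well, with list means of 5.26 to 5.56 in spleen and 6.38 to 6.56 in bone marrow. With their mean as a covariate the mitosis median was 2.22, but its standard errors grew from a median of 0.45 to 1.40 and limma called 0 members, with 3 at an unadjusted p under 0.05.

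Mitotic genes are known to share a promoter arrangement in which CCAAT boxes, bound by NF-Y, lie upstream of a cell cycle homology region (CHR), and DNA replication genes to carry E2F sites. The promoter windows of RefSeq (GRCm38.p6, 250 bases before to 50 after each start) were searched on both strands for TTTGAA or TTCGAA as the CHR, for CCAAT, and for 3 E2F octamers, TTTGGCGC, TTTCCCGC and TTTCGCGC. The 200 bases before the start are shown for 6 genes that rose, because they carry these letters, with every match to a CHR, CCAAT or E2F word in capitals and printed 5′ to 3′ along the gene.
Ccnb2, chr9:70421555-70421754, minus strand: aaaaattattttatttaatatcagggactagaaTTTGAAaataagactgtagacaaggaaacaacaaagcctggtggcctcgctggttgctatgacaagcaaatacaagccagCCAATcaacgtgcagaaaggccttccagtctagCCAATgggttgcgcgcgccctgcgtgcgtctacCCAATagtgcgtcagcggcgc
Kif11, chr19:37376182-37376381, plus strand: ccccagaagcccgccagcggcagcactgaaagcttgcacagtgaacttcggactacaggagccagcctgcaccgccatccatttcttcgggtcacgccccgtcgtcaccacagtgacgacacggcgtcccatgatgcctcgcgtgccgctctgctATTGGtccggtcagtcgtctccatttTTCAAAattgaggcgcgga
Mki67, chr7:135716380-135716579, minus strand: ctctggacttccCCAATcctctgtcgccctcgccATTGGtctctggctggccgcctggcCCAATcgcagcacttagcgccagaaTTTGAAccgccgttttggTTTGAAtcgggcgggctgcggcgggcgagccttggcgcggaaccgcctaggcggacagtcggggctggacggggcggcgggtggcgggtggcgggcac
Ube2c, chr2:164769729-164769928, plus strand: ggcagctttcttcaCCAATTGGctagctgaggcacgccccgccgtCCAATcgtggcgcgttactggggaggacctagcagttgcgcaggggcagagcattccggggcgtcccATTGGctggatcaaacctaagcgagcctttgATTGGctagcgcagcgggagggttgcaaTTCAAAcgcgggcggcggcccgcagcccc
Cdk1, chr10:69352913-69353112, minus strand: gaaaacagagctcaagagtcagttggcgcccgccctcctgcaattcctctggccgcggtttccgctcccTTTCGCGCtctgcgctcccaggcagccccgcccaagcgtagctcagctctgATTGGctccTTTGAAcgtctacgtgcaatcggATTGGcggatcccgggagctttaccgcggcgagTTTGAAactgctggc
Mcm6, chr1:128359706-128359905, minus strand: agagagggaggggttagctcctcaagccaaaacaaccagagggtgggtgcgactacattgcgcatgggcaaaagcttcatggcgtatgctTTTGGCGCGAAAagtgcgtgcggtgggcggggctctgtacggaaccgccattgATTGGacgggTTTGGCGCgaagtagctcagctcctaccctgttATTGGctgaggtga

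In these stretches Ccnb2 has 1 CHR and 3 CCAAT words, and Mki67 2 and 3. The CHR word shown for Ccnb2 lies upstream of its CCAAT words, the reverse of that arrangement. Another TTTGAA, at position 4 after the Ccnb2 start, lies outside the stretch shown. Ube2c has 1 CHR word and 5 CCAAT words, 2 of which overlap on opposite strands. Cdk1 has 2 CHR words, 2 CCAAT words and 1 E2F word, and Mcm6, a subunit of the replicative helicase, 3 E2F words, 2 of them overlapping, 2 CCAAT words and 0 CHR words. Of 31 windows found for 30 of the 35 mitosis genes tested, 80.6% held a CHR word and 74.2% a CCAAT word, and 71.0% held both. The order of the words was not counted. Over the 12039 windows of all genes tested these shares were 13.9%, 37.0% and 5.62%, and over all 32851 promoter windows 19.2%, 37.4% and 7.52%. E2F words were found in 31.4% of the 35 windows of DNA replication genes tested, in 6.45% of the mitosis windows, in 3.45% of the windows of all genes tested and in 1.84% of all windows. The letters describe the promoters of the lists and were not used to choose the lists, but the 6 genes shown were chosen for them. Windows of Birc5, Nusap1, Ncaph and Mad2l1, mitosis genes that also rose, held none of these words. Among the 514 windows of all genes called higher in bone marrow, 22.2% held a CHR word and 9.73% an E2F word, against 13% and 1.74% of the 115 windows of genes called lower. The 514 include 22 windows of called mitosis genes, 17 with a CHR word, and 18 of called DNA replication genes, 7 with an E2F word.

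DNA replication genes were higher in bone marrow too, by less. Of 34 tested, 15 rose and 0 fell, all 34 had a difference above 0, and the median was 0.84. The list means were 7.02, 6.91 and 6.88 in the spleen against 8.02, 7.58 and 7.41 in the marrow. Genes of the replicative helicase were among them. Mcm7 stood at 6.87, 6.80 and 6.51 in the spleen against 8.10, 7.51 and 7.91 in the marrow (1.22 ± 0.14, limma adjusted p = 0.00125). Mcm3 stood at 6.72, 6.59 and 6.64 against 8.23, 7.65 and 7.51 (1.22 ± 0.21), and Mcm10, a replication initiation factor, at 5.75, 5.81 and 5.62 against 6.97, 7.13 and 6.49 (1.18 ± 0.18). For all 3 the groups were apart. Mcm2, Mcm5 and Mcm6 also rose, and Mcm4 (0.64 ± 0.21, limma adjusted p = 0.108) did not pass. The nucleotide enzymes Rrm2 (1.70 ± 0.34), Rrm1 (1.2 ± 0.30) and Dut (1.07 ± 0.20), the primase Prim1 (1.35 ± 0.33), the polymerase Pola1 (1.13 ± 0.26) and the DNA ligase Lig1 (1.09 ± 0.21) rose, as did Uhrf1 (1.61 ± 0.37), which keeps DNA methylation through replication, although its arrays overlapped. Within the runs the list median was 1.14 and 0.58. Without bone marrow 1 it was 0.53 with 1 member called, and without spleen 2, spleen 3 or spleen 1 limma called 7, 7 and 9.

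Replication-dependent histone genes, which are transcribed in S phase, had 10 of 21 members higher and 0 lower, with a median of 0.88. H2ac4 rose from 6.60, 6.83 and 6.12 to 9.32, 9.28 and 8.15 (2.44 ± 0.57, limma adjusted p = 0.0319), and the linker histone H1f5 from 8.17, 7.92 and 7.73 to 10.30, 9.95 and 9.37 (2.01 ± 0.38, limma adjusted p = 0.0128). Copies of these genes are nearly identical, so which copy gave the signal is uncertain. Limma called 0 of them without bone marrow 1, with a median of 0.63, and 0 without spleen 3, with a median of 1.13, and it called 2 without spleen 1, 2 without spleen 2 and 6 without bone marrow 2. Regulators of entry into the cycle were fewer among the calls. Of 19 cyclin-dependent kinase, inhibitor and quiescence genes 4 rose and 0 fell, the repressor E2f8 (2.12 ± 0.36), E2f3 (1.62 ± 0.26) and the G1 kinases Cdk6 (1.03 ± 0.16) and Cdk4 (0.66 ± 0.11). A second probe set of E2f3 did not move. The inhibitor Cdkn1b (-0.18 ± 0.15) and the D-type cyclins Ccnd2 (0.16 ± 0.12) and Ccnd3 (0.01 ± 0.11) did not pass. In the DNA damage list Chek1 (1.83 ± 0.29), a checkpoint kinase of S phase, was the 1 call among 13.

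**Figure D2:**
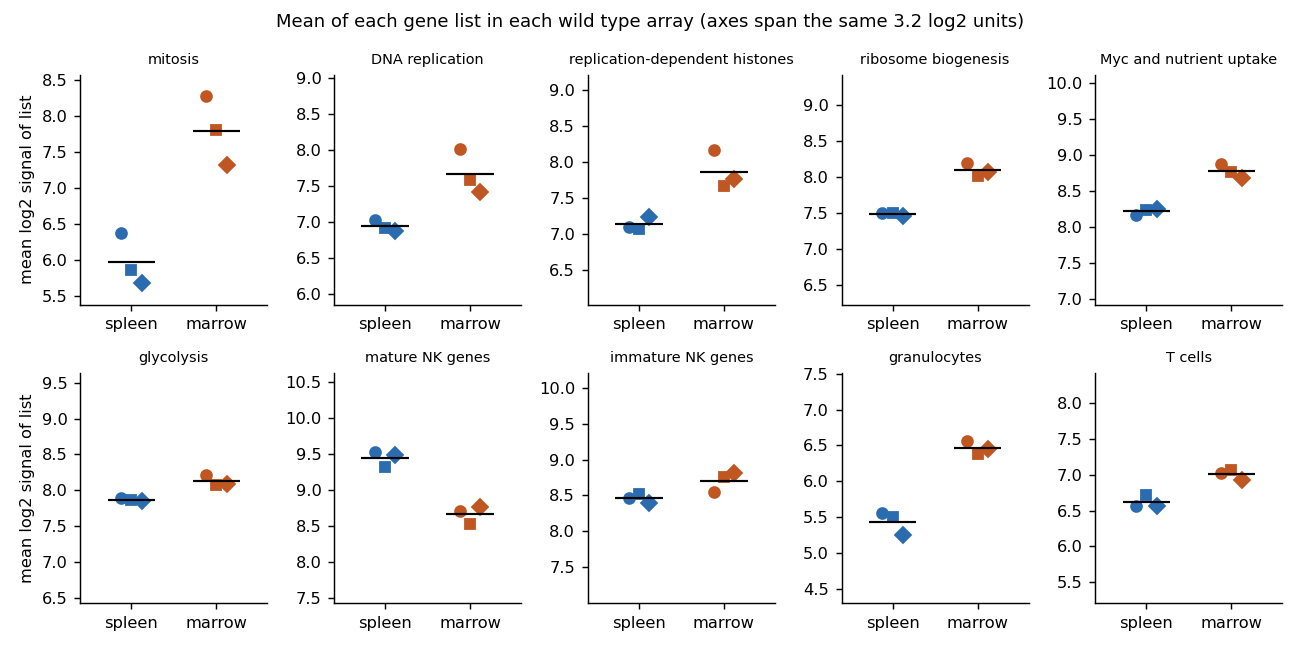
Mean log2 signal over all measured members of 10 gene lists in each wild type array, with spleen in blue and bone marrow in orange, circles for array 1, squares for array 2, diamonds for array 3 and bars for the mean of 3. Each panel spans the same log2 range, and the mitosis list moves most, from 5.68 to 6.37 in spleen to 7.31 to 8.27 in bone marrow.

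Growth genes moved with the cell cycle. Myc, the transcription factor that raises ribosome and nucleotide synthesis, stood at 9.27, 9.37 and 9.76 in the spleen against 10.76, 10.70 and 10.78 in the marrow, and rose by 1.22 ± 0.12 (limma adjusted p = 0.000553). The bone marrow values lay close together and above all spleen values. The amino acid transporter Slc7a5, which imports leucine, stood at 6.70, 7.29 and 6.50 against 8.84, 8.37 and 8.13 (1.81 ± 0.17, limma adjusted p = 0.000553). The transferrin receptor Tfrc, which takes up iron, stood at 6.56, 6.74 and 6.41 against 7.86, 7.63 and 7.54 (1.19 ± 0.14). Of the 13 genes of the Myc and nutrient uptake list 6 rose and 0 fell, with a median of 0.52. The others were the polyamine enzyme Odc1 (0.68 ± 0.13), the arginine transporter Slc7a1 (0.64 ± 0.11) and the pyrimidine enzyme Cad (0.52 ± 0.11), while the glucose transporters Slc2a1 (0.27 ± 0.15) and Slc2a3 (-0.25 ± 0.14) did not pass. Without bone marrow 1 limma called 3 of them, and 4 each without spleen 2 and spleen 3.

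Ribosome biogenesis genes had 11 of 19 members higher and 0 lower, and all 19 had a difference above 0 (median 0.52). Dkc1, the pseudouridine synthase of ribosomal and telomerase RNA, stood at 7.19, 6.88 and 7.09 in the spleen against 8.31, 7.96 and 8.06 in the marrow (1.12 ± 0.12, limma adjusted p = 0.00098). Gnl3, or nucleostemin, stood at 7.87, 7.98 and 7.6 against 8.89, 8.78 and 8.61 (1.01 ± 0.12), and the small nucleolar RNA-protein component Nop58 at 8.07, 8.06 and 8.11 against 9.15, 8.96 and 8.78 (0.93 ± 0.10). The groups did not overlap for any of them. Fibrillarin (Fbl, 0.97 ± 0.14), the methyltransferase of ribosomal RNA, rose too, while a second probe set of it moved less. Of 13 ribosomal protein genes 0 passed in limma, although all 13 had a difference above 0, with a median of 0.12. A list of that size can hold no call at the share over all genes, 4.34% higher and 1.04% lower. The biogenesis calls numbered 4 without bone marrow 1, 6 without spleen 3, 7 without bone marrow 2 or spleen 1, and 7 with each rescaling.

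Of 10 glycolysis genes tested 5 rose and 0 fell (median 0.37). Phosphoglycerate kinase Pgk1 (0.66 ± 0.11), lactate dehydrogenase Ldha (0.56 ± 0.13), Pgam1 (0.53 ± 0.11), Tpi1 (0.48 ± 0.11) and pyruvate kinase Pkm made up the calls. Limma called 2 after either rescaling, 0 without bone marrow 1 or spleen 3 (medians 0.36 and 0.40), 1 without spleen 1 and 2 without spleen 2 or bone marrow 2. Further groups were formed after their values were seen and are described only. Enzymes of serine, one-carbon and purine synthesis, which supply nucleotides, had 10 of 18 higher and 0 lower (median 0.47), led by Phgdh (1.07 ± 0.19), Shmt2 (1.06 ± 0.13), Atic (1.06 ± 0.12), Mthfd1 (1.02 ± 0.16) and Psat1 (1.00 ± 0.17). Shmt2 stood at 7.19, 7.22 and 7.27 in the spleen against 8.40, 8.16 and 8.17 in the marrow. Of the 8 subunits of the CCT chaperonin, which folds actin and tubulin, 6 were higher, Cct3 most (0.76 ± 0.11), and of 77 mitochondrial ribosome proteins 15 were higher and 0 lower (median 0.31). With 1 array left out limma called 3 to 9, 0 to 4 and 0 to 9 members of these 3 groups, the fewest without bone marrow 1, where the medians were 0.44, 0.41 and 0.25.

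Genes of late NK maturation were lower in bone marrow. Of 14 mature NK genes tested 7 fell and 0 rose, all 14 had a difference below 0, and the median was -0.58. The list means were 9.53, 9.32 and 9.49 in the spleen against 8.71, 8.53 and 8.77 in the marrow. Klrg1, an inhibitory receptor of terminally mature cells, stood at 9.76, 9.0 and 9.12 in the spleen against 8.16, 7.18 and 7.77 in the marrow (-1.48 ± 0.25, limma adjusted p = 0.0071). Zeb2, the repressor required for terminal maturation, stood at 9.69, 9.50 and 9.65 against 8.28, 7.93 and 8.48 (-1.40 ± 0.16, limma adjusted p = 0.00115). The groups did not overlap for either gene. S1pr5, the receptor through which NK cells leave the bone marrow, stood at 9.23, 9.18 and 9.41 against 7.94, 8.10 and 8.29 (-1.23 ± 0.13, limma adjusted p = 0.000918). Cma1, a chymase gene, stood at 7.98, 7.61 and 7.76 against 6.48, 6.39 and 6.59 (-1.26 ± 0.23). The fractalkine receptor Cx3cr1, which marks a late circulating subset, stood at 8.96, 7.94 and 8.37 against 7.48, 7.12 and 7.13 (-1.10 ± 0.21), and Itgam, which encodes CD11b, at 9.96, 9.76 and 9.97 against 8.86, 8.42 and 9.17 (-1.07 ± 0.17). Every spleen array exceeded every bone marrow array in each of these genes, which was a condition for being named among the largest falls.

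Of the other mature genes, Gzma fell by 0.38 ± 0.10 (limma adjusted p = 0.0456). Tbx21 (-0.35 ± 0.15), Gzmb (-0.36 ± 0.12), Spn (-0.51 ± 0.14), Prdm1 (-0.31 ± 0.17) and Klf2 (-0.21 ± 0.14) had lower values in bone marrow and did not pass. Perforin (Prf1) stood at 11.09, 10.91 and 11.27 in the spleen against 10.52, 10.25 and 10.61 in the marrow and fell by 0.64 ± 0.13 (limma adjusted p = 0.0215). Prf1 and Gzma were the 2 calls among 17 cytotoxic effector genes, whose median was -0.05, and interferon gamma (Ifng) differed by 0.03 ± 0.30. The mature list had medians of -0.50 and -0.76 within the runs and -0.58 with the granulocyte markers as a covariate, where limma called 0 members and 5 had an unadjusted p under 0.05. Without spleen 3 limma called 2 and without bone marrow 1 it called 3.

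**Figure D3:**
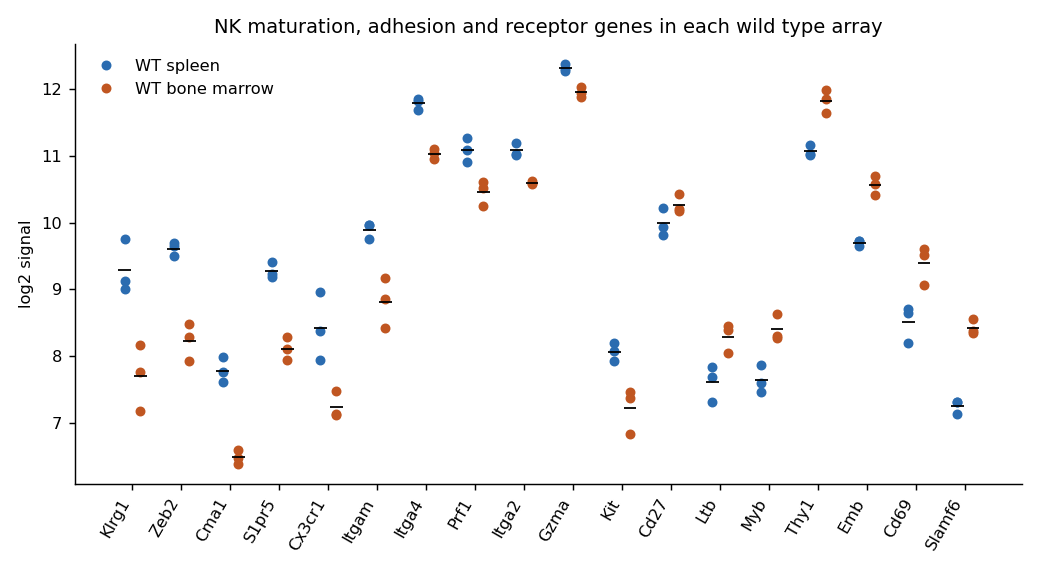
Log2 signal of 18 NK maturation, adhesion and receptor genes in each of the 3 wild type spleen (blue) and 3 wild type bone marrow (orange) arrays, with bars for the mean of 3. The genes from Klrg1 to Kit are higher in every spleen array, and those from Ltb to Slamf6 in every bone marrow array, while the arrays overlap for Cd27.

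Genes of immature NK cells divided. Of 16 tested 4 rose and 1 fell, with a median of 0.23. Emb, a cell adhesion protein of the basigin family, stood at 9.65, 9.73 and 9.72 in the spleen against 10.41, 10.70 and 10.58 in the marrow (0.88 ± 0.14, limma adjusted p = 0.00592). Thy1, the surface glycoprotein CD90, rose from 11.17, 11.02 and 11.03 to 11.99, 11.64 and 11.86 (0.80 ± 0.13). In both genes all bone marrow arrays were higher. The transcription factor Myb (0.75 ± 0.20, limma adjusted p = 0.049) and lymphotoxin beta (Ltb, 0.69 ± 0.15) rose, Myb close to the threshold. Kit, the stem cell factor receptor, went the other way, from 8.08, 8.19 and 7.92 in spleen to 6.84, 7.37 and 7.46 in bone marrow (-0.90 ± 0.15, limma adjusted p = 0.00802). Cd27 (0.23 ± 0.12), whose loss follows maturation, Il7r (-0.53 ± 0.34) and Itgav (-0.20 ± 0.13) did not pass. The 4 higher calls became 2 without spleen 1, bone marrow 1, spleen 3 or bone marrow 3 and 2 when the arrays were quantile normalized again. Kit was not called without bone marrow 1 (-0.62).

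Receptors and adhesion molecules that place NK cells in a tissue had 6 of 28 members lower and 1 higher in bone marrow, with a median of -0.17. Besides S1pr5, Cx3cr1 and Itgam, the integrin chains Itga4 (-0.77 ± 0.14), Itgb2 (-0.53 ± 0.10) and Itga2 (-0.50 ± 0.11), the CD49b chain used as an NK marker, fell. Itga4 stood at 11.85, 11.83 and 11.69 in the spleen against 11.05, 10.95 and 11.11 in the marrow. Cd69, which holds lymphocytes in tissue by removing S1pr1 from the surface, stood at 8.20, 8.65 and 8.70 against 9.07, 9.51 and 9.60 and rose by 0.82 ± 0.18 (limma adjusted p = 0.026). Its bone marrow arrays all exceeded its spleen arrays. The bone marrow retention receptor Cxcr4 stood at 9.57, 10.16 and 9.97 against 10.28, 10.98 and 10.60 (0.63 ± 0.20, limma adjusted p = 0.095), and Cxcr6 at 7.51, 7.31 and 7.23 against 7.90, 8.0 and 7.89 (0.64 ± 0.17, limma adjusted p = 0.0524), and neither passed, although their arrays did not overlap. S1pr1 (-0.19 ± 0.17) and Cxcr3 (0.47 ± 0.24) did not pass either. Without bone marrow 1 limma called 1 of the 6 lower members, and without spleen 3 it called 2. The higher member was called with spleen 2 left out and with no other array left out.

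Among 29 NK receptor genes 3 rose and 5 fell (median -0.24). Slamf6, a homotypic receptor of the SLAM family, stood at 7.31, 7.32 and 7.13 in the spleen against 8.35, 8.38 and 8.55 in the marrow (1.17 ± 0.11, limma adjusted p = 0.000553). The inhibitory receptors Lilrb4a (0.84 ± 0.17) and Tigit (0.76 ± 0.13) also rose. Slamf7, a SLAM family receptor, went the opposite way to Slamf6, from 10.62, 10.46 and 10.50 to 9.83, 9.56 and 10.01 (-0.73 ± 0.15). Klrc3 (-0.72 ± 0.16), Klrc2 (-0.60 ± 0.13) and the Ly49 receptor Klra3 (-0.45 ± 0.11) fell with Klrg1. The Klrc and Klra families hold members of similar sequence, whose signals may be shared. The lower calls numbered 0 without spleen 3, 1 each without spleen 1, bone marrow 1 or bone marrow 2, and 2 without spleen 2, and the higher calls 1 without spleen 3.

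Of 32 transcription factors 3 rose and 2 fell. Beside Myc and Myb, Nfil3 (0.61 ± 0.16, limma adjusted p = 0.0494), which is needed early in NK development, rose, and with Zeb2 the factor Klf3 fell, from 10.10, 10.21 and 10.21 in spleen to 8.96, 9.15 and 9.56 in bone marrow (-0.95 ± 0.18). Of 25 cytokine receptor and JAK-STAT genes 3 rose. They were the signalling inhibitors Socs2, from 6.55, 6.37 and 6.55 to 7.5, 7.91 and 7.78 (1.17 ± 0.13, limma adjusted p = 0.00098), and Socs3 (0.84 ± 0.18), and the receptor Il21r (0.66 ± 0.15). Il2rb, the receptor chain for IL-2 and IL-15, differed by -0.01 ± 0.10. Of 13 genes of type 1 innate lymphoid cells and tissue residency 3 rose, the lipid phosphatase Inpp4b (1.29 ± 0.19), Cd69 and Tmem176a (0.81 ± 0.20), while Itga1 differed by -0.02 ± 0.22. Fosb (1.11 ± 0.21), a subunit of AP-1, was the 1 call among 29 immediate early genes, from 8.91, 8.88 and 8.77 to 10.02, 10.08 and 9.83. The survival gene Bcl2 rose by 0.55 ± 0.14 and the death receptor gene Fas fell by 0.45 ± 0.11, the 2 calls among 16 genes of those families.

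Genes of the CD3 complex, whose surface protein the sort excluded, were higher in bone marrow. Cd3g stood at 7.31, 7.05 and 6.48 in the spleen against 8.75, 8.88 and 8.68 in the marrow (1.95 ± 0.22, limma adjusted p = 0.00104). Cd3d stood at 7.83, 7.58 and 7.43 against 9.39, 9.30 and 9.32 (1.88 ± 0.23), and Cd3e at 6.95, 7.32 and 7.02 against 8.49, 8.92 and 8.08 (1.46 ± 0.22). The groups were more than a log2 unit apart for Cd3d and Cd3g. All 3 were called with any 1 array left out. They were the 3 calls among 10 T cell markers tested (median 0.16). The zeta chain Cd247 (-0.13 ± 0.11), which NK cells use with other receptors, Cd5 (0.33 ± 0.15), Cd28 (0.11 ± 0.14), Cd6 (0.11 ± 0.14) and Cd8a (-0.09 ± 0.12) did not pass, and Cd4, Cd8b1 and Themis lay under the filter level of 5.49 in every array. The summed linear signal of the measured T cell markers was 2013 to 2232 in spleen and 3105 to 3365 in bone marrow. The part of T cells in the rise of the CD3 genes was not tested.

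Granulocyte genes were among the largest rises. Of 22 markers measured 13 were tested, 7 rose and 0 fell, with a median of 1.37. The filter used the mean of all arrays, so a marker could pass it through its bone marrow signal. With no filter the median of all 22 was 0.81, and limma called 10 higher and 0 lower. S100a8 stood at 8.13, 7.56 and 6.39 in the spleen against 10.88, 10.81 and 10.73 in the marrow (3.72 ± 0.37, limma adjusted p = 0.000608), and S100a9 at 8.76, 8.57 and 6.59 against 11.11, 10.97 and 10.85. Their bone marrow arrays were close together, and spleen 3 was the lowest. The granule genes Ngp, Lcn2 (2.55 ± 0.26), Camp (1.59 ± 0.27) and Mpo (1.37 ± 0.31) and the resistin-like gene Retnlg (2.03 ± 0.29) rose. The early granule genes Elane (0.41 ± 0.13) and Prtn3 (0.26 ± 0.17) did not pass, and Mmp8, Ms4a3, Hp and Cxcr2 lay under 5.49 in every array. The summed linear signal of the 22 markers was 1024 to 1617 in spleen and 5187 to 6062 in bone marrow. Limma called 4 without bone marrow 1 (median 0.99) and 5 without spleen 3, and the list median was 1.32 in the first run and 0.56 in the second. These markers separate the tissues as the cell cycle and maturation genes do. With their mean as a covariate limma called 0 of 11963 genes, with 767 at an unadjusted p under 0.05, and the median standard error rose from 0.13 to 0.40. Of the 643 genes called without it 630 kept their sign.

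Other cell types left fewer traces. Car1, an erythroid carbonic anhydrase, rose from 5.37, 5.14 and 5.44 to 7.77, 6.53 and 6.42 (1.69 ± 0.30, limma adjusted p = 0.0101) as the 1 call among 8 erythroid genes, whose summed signal was 1106 to 1210 in spleen and 1313 to 1478 in bone marrow. Of 7 monocyte and macrophage genes Lyz2 rose (1.91 ± 0.36), a gene that granulocytes also express, and Ms4a6c fell (-0.77 ± 0.17), with sums of 3074 to 3449 and 3583 to 4555. Csf1r, Cd14 and Adgre1 lay under 5.49 in every array. Of 8 B cell genes Cd22 fell, from 6.22, 6.27 and 6.27 to 5.26, 4.97 and 5.30 (-1.04 ± 0.19), with sums of 1060 to 1087 and 981 to 1205, and Ms4a1, Ebf1 and Blnk lay under 5.49 in every array. Of 8 progenitor genes only Myb rose and only Kit fell. Limma called 0 of 4 plasma cell, 9 dendritic cell, 2 basophil and mast cell, 7 platelet, 5 other innate lymphoid, 6 stromal and 3 sex-linked genes.

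MicroRNA genes had probe sets on the array too, which read cDNA made from total RNA and do not tell precursor from mature RNA. Of 300 such genes 108 were tested, and 7 fell and 0 rose. A single mature sequence is shown for each hairpin, and the other mature sequence is left out. That choice does not rest on these arrays. The seed, bases 2 to 8, is in capitals, because the seed decides which targets a microRNA pairs with (RefSeq, GRCm38.p6).
miR-103-3p: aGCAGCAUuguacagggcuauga
miR-195a-5p: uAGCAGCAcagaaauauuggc
miR-505-3p: cGUCAACAcuugcugguuuucu
miR-211-5p: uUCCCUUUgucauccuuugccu
miR-194-5p: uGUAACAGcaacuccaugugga
miR-199a-3p: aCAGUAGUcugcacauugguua
miR-326-3p: cCUCUGGGcccuuccuccagu

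No seed was shared among these 7. The seed of miR-103-3p is also that of Mir103-1 and Mir107, and that of miR-195a-5p is carried by the Mir15 and Mir16 genes. Mir103-2 stood at 7.73, 7.87 and 7.15 in the spleen against 6.29, 5.23 and 6.50 in the marrow (-1.50 ± 0.31, limma adjusted p = 0.0193), and Mir505 at 8.50, 8.41 and 8.22 against 7.97, 7.27 and 7.11 (-0.79 ± 0.20). Mir211 (-0.51 ± 0.13), Mir195a (-0.49 ± 0.12), Mir194-1 (-0.44 ± 0.12), Mir199a-1 (-0.41 ± 0.10) and Mir326 (-0.36 ± 0.09) fell by less, and their arrays did not overlap. The median over the 108 genes was -0.17, and 16 of them lay above 0. Dim genes leaned the same way in these arrays. With all genes split into 5 equal classes by level, the median difference was -0.11 and -0.07 in the dimmest 2 classes and 0.04 to 0.06 in the others, and 70 of the 108 microRNA genes lay in those 2 classes. The part of this shift in the microRNA result was not tested. Limma called 0 of them without bone marrow 1 or without spleen 3, 1 without spleen 2, 2 each without spleen 1, bone marrow 2 or bone marrow 3, 4 when the arrays were quantile normalized again, 2 with no filter on low values, 4 with the filter at the 60th percentile, 4 with a trended, robust prior and 10 with median centring (median -0.24). Fitted to the 6 wild type arrays alone it called 1 higher, with 4 lower when the run was a covariate and 7 when it was not. Of the 10 microRNA pathway genes tested 0 passed, a count near the share over all genes, 4.34% higher and 1.04% lower.

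Several programmes showed no call in limma. These were the 14 TGF-beta genes (median -0.08), 18 interferon-stimulated genes (-0.06), 15 sterol synthesis genes (0.02) and 8 GIMAP GTPases (0.00). Lists of this size can hold no call at the share over all genes, 4.34% higher and 1.04% lower. In the TGF-beta list the receptor gene Tgfbr1 differed by -0.26 ± 0.11 and Tgfb1 by 0.26 ± 0.13. Among interferon genes Oas1a (-0.53 ± 0.22) and Stat2 (-0.42 ± 0.15) had the smallest p.

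**Figure D4:**
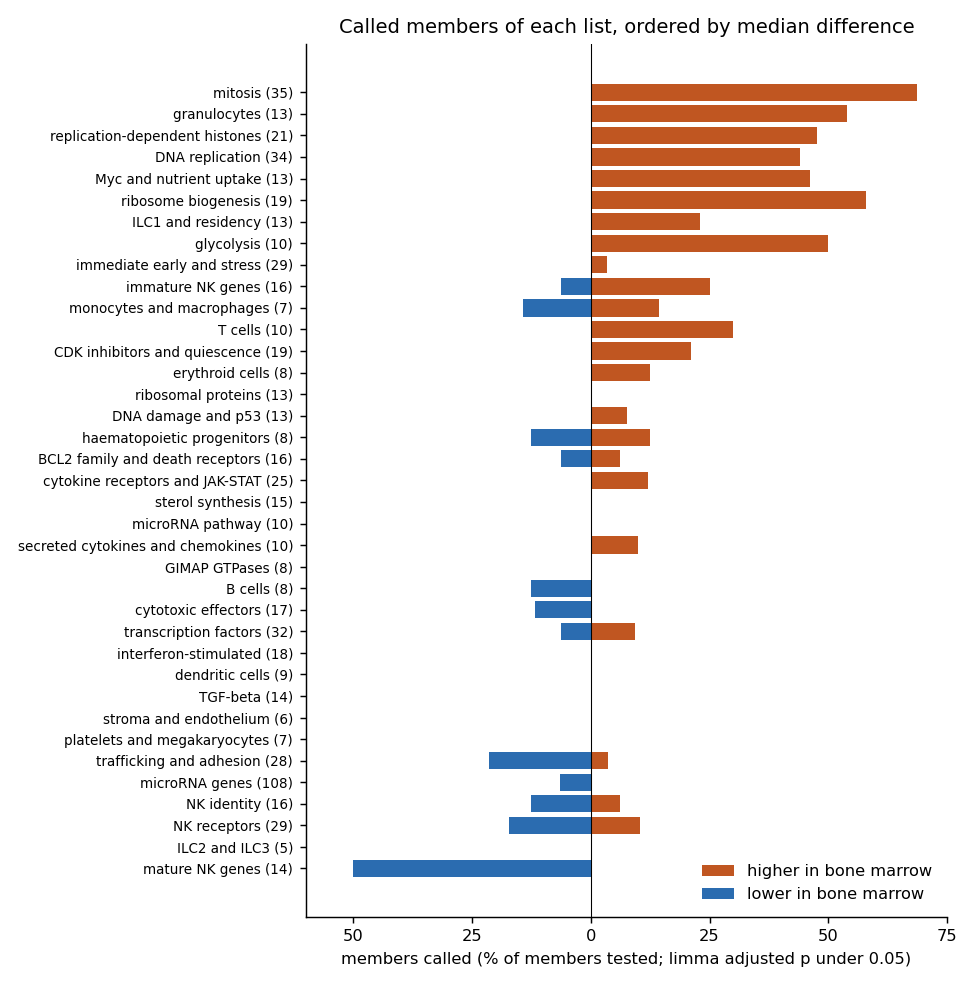
Share of tested members called higher (orange, to the right) or lower (blue, to the left) in wild type bone marrow for each list with at least 5 members tested, whose number is in parentheses. Lists are ordered by their median difference, from the mature NK genes at -0.58 to the mitosis genes at 2.00.

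The same tissue comparison in cells without miR-142 called 38 genes in limma (0.318% of genes tested), 11 higher and 27 lower in bone marrow. Signs were compared between plain group means, without the run term. Of the 519 genes called higher in wild type bone marrow, 470 (90.6%) had the same sign in the knockout. Of the 124 called lower 92 (74.2%) did, against 59.7% of all genes tested. In the fit with the run term, the median difference of the 519 was 0.74 in wild type and 0.19 in knockout. That of the 124 was -0.56 and -0.18. The genes were chosen on the wild type values, so smaller medians in the knockout were built into the choice. The mitosis median was 0.74 in the knockout, with list means of 6.19 to 6.82 in its spleen arrays and 8.35, 7.26 and 6.33 in its bone marrow arrays 1, 2 and 3, so its bone marrow array 3 lay within the range of its spleen arrays. The mature NK list had a knockout median of -0.67.

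The difference between the 2 tissue effects was itself tested, and it passed in limma for 1 gene (0.00836% of genes tested), with 1092 at an unadjusted p under 0.05. That gene was Slamf6. Its 6 knockout signals lay between 4.21 and 4.85, all under the filter level of 5.49, so it was tested only through its wild type arrays and its tissue difference in the knockout had no measurable level. The fitted difference between the genotypes was 1.59 (limma adjusted p = 0.0194). It combines the wild type rise of 1.17 ± 0.11 with a knockout fall among values near the floor. Those values were 4.75, 4.85 and 4.68 in the knockout spleen against 4.47, 4.3 and 4.21 in its marrow. The call was lost without bone marrow 1, bone marrow 2 or spleen 3, at adjusted p = 0.148, 0.0502 and 0.181. S100a8 (3.54, adjusted p = 0.0837), Cd3g (2.14, 0.0837) and Slc7a5 (1.91, 0.071) had larger fitted differences in wild type than in knockout, and the test did not pass. Car1 had opposite signs, 1.69 ± 0.30 in wild type and -1.78 ± 0.34 in knockout (adjusted p = 0.071 for the difference). Its knockout signals were 6.93, 7.16 and 6.86 in the spleen against 5.76, 5.51 and 4.94 in the marrow. Car1 passed with no run term, with the run as a random block and with median centring. S1pr5 fell by 1.23 ± 0.13 in wild type and by 1.13 ± 0.15 in knockout (limma adjusted p = 0.00561). Kit fell by 0.90 ± 0.15 in wild type, and its knockout difference of -0.82 ± 0.17 did not pass (limma adjusted p = 0.0981). All 3 knockout bone marrow arrays lay in the first run, with knockout spleen 3, so the knockout differences rest on the run term more than those of wild type.

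**Figure D5:**
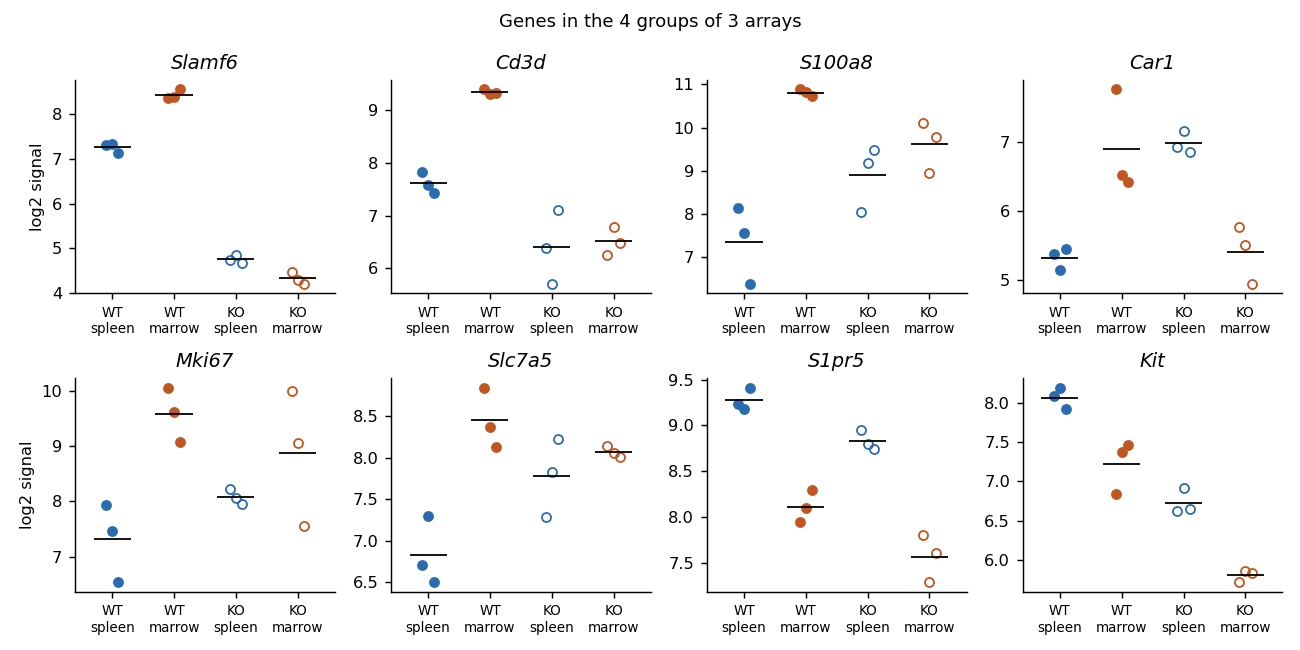
Log2 signal of 8 genes in the 3 arrays of each of the 4 groups, with wild type as filled and knockout as open points, spleen in blue and bone marrow in orange, and bars for the mean of 3. Slamf6 is higher in wild type bone marrow than spleen and low in both knockout tissues, while S1pr5 and Kit are lower in the bone marrow of both genotypes.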

How the data were processed

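RNA of sorted NK cells was amplified and hybridised to Affymetrix gene arrays. The authors deposited log2 values made with RMA in Affymetrix Expression Console, per the submitters' processing notes; the program's version and annotation release are not stated there. RMA corrects background and equalises the arrays' distributions, so a shift common to most genes cannot be seen, and 3 arrays per group limit the precision.

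Of 35556 probe sets 21789 had 1 symbol, 1621 several and 12146 none, and those with several or none were left out. For each of 19938 symbols the probe set with the highest mean was kept, and those whose mean exceeded the 40th percentile (5.49) were tested. limma 3.58.1 in R 4.3.3 was fitted with lmFit and eBayes to all 12 arrays with 4 group means and the run of array numbers, with 7 residual degrees of freedom. The labels call the arrays biological replicates without tying each to its own mouse, so p-values measure only the spread between these samples. Scripts were tested on simulated data.

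Named genes are the 15 largest rises and falls, up to 4 called members per list by p and a list of NK genes, and further members were chosen after their values were seen. The lists were chosen with earlier results of these data known. The CCT, one-carbon, mitochondrial ribosome and CD3 groups were formed from values in this comparison. Some listed genes were not analysed here. Promoter and microRNA sequences come from RefSeq (GRCm38.p6). Alternatives were the scaling, filter, probe set rule, run, replicate number, granulocyte markers as a covariate, and each array left out.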

Additional observations from a re-analysis of the deposited data

Results flagged for a closer look

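Slamf6 was singled out because its tissue effect differed between the genotypes in the test of that difference. The fitted value was 1.59 on the log2 scale, wild type minus knockout (limma adjusted p = 0.0194). All 6 knockout signals, 4.21 to 4.85, lay under the filter level of 5.49, so the tissue difference in the knockout had no measurable level. The value combines the wild type rise with a knockout fall among those signals under the filter. Its adjusted p ranged from 0.000525 to 0.831 over the alternatives. Outlying arrays were not tested for, since each group holds 3.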

How the results depend on the processing

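The scalings, filters, probe set rules, priors and treatments of the run within a fit of all 6 wild type arrays left the count of called genes between 543 and 755, against 643. Lower genes rose from 124 to 204 with a second quantile normalization and to 229 with median centring, which moved the median of all genes to -0.043 and -0.087. With 1 array left out, limma called 82 to 556 genes, 69 to 435 higher and 13 to 121 lower, 42 to 182 of them over 2-fold, and 0 to 3 genes whose tissue difference differed between the genotypes. The first run alone gave 1 call, 1 higher and 0 lower, 1 over 2-fold, and the second 8, 8 higher and 0 lower, 8 over 2-fold, with few arrays in each. The granulocyte covariate gave 0 calls, 0 higher, 0 lower and 0 over 2-fold, and 0 differences between genotypes, with 767 and 701 genes at an unadjusted p under 0.05. It turned S100a9 to -0.21, Ngp to -1.55 and Lyz2 to -0.41. S100a9 and Ngp are themselves among the markers in the covariate. The other alternatives run gene by gene kept the sign of all 643 calls, or of the 539 present with the filter at the 60th percentile. The 643 were chosen on these same arrays, and 639 did not overlap between the tissues. Kept signs were therefore largely built into the choice. Genes whose tissue difference differed between the genotypes numbered 2 without the run, 12 with the run as a random block, 2 with median centring, 3 with a trended, robust prior and 0 with the 60th percentile filter (739 unadjusted), which does not hold Slamf6; the cause of the others was not tested.

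Whether equal replicate numbers share a mouse is not given in the sources used here, and the main fit was unpaired. Deviations of same-numbered arrays correlated at 0.13, 0.04 and 0.13, and 6 of 6 arrays correlated best with their own number. The pairs at 0.13 each lay within the same run of array numbers, and the pair at 0.04 was split between the runs. These values therefore cannot tell a shared mouse from a shared run. With the replicate number as a block limma called 701 genes, 590 higher and 111 lower, 35 of the 35 mitosis genes against 24, 1 microRNA gene higher and 5 lower, and 7 genes whose tissue difference differed between the genotypes, Car1 and Slamf6 among them.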
